A study of Mus musculus with 13 samples.

Results

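Lamp5 interneurons of the hippocampus were taken as nuclei with GABAergic transcripts and Lamp5 that lacked the transcripts of the Sst, Vip and Pvalb interneurons. A retained nucleus had at least 500 genes and at most 5% mitochondrial unique molecular identifiers (UMIs). It was counted as a Lamp5 interneuron when Gad1 and Gad2 together had at least 3 UMIs, Lamp5 at least 2, Sst fewer than 3, Vip fewer than 2 and Pvalb fewer than 2. This gave 395 Lamp5 nuclei among 4891 GABAergic nuclei and 105427 retained nuclei.

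Lamp5 codes for a membrane protein of the lysosome-associated family and marks neurogliaform cells, together with the related ivy cells of the hippocampus. Neurogliaform cells have short, dense axons and release GABA in a diffuse cloud, which acts on synaptic and extrasynaptic GABAA receptors and on GABAB receptors of many neighbouring cells. In the hippocampus they come from both embryonic sources of interneurons: cells from the caudal ganglionic eminence keep Adarb2 and often express Reln and Ndnf, while cells from the medial ganglionic eminence keep Lhx6 and often express Nos1.

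Nuclei came from the whole frozen hippocampus of 13 female mice, labelled strain C3HB6F1, 1 library per mouse, and were profiled with the 10x Genomics droplet method after a Hoechst sort. The young group was 5 months old and fed ad libitum (3 mice). The 3 old groups were 24 months old: ad libitum feeding throughout (3 mice, numbered 1, 2 and 4), acute dietary restriction begun at 20 months (3 mice), and long-term dietary restriction begun at 5 months (4 mice). All mice were female and of 1 hybrid strain. Each sum therefore describes a dissected whole organ, without its subfields or layers, and only RNA held in nuclei.

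Retained nuclei numbered 3516 to 12336 per library, and their median depth ran from 3801 to 11375 UMIs. Lamp5 nuclei had a median of 9857 UMIs and 3373 genes, near the median of 9345 UMIs in the other 4496 GABAergic nuclei. Young Lamp5 nuclei were shallower, with medians of 7914, 7288 and 7675.5 UMIs per mouse against 8031 to 16099 in the 10 old mice. Earlier results of these data had set the 4 libraries numbered 1, with 1 in each group, apart from the rest, so comparisons are also given with number 1 as a term. No Lamp5 barcode sequence was shared between 2 Lamp5 nuclei, and 7 of the 395 were also present in another library. A doublet ranking marked 31 of the 395 nuclei, and 30 had 2 or more UMIs of Slc17a7, the vesicular glutamate transporter of excitatory neurons. Nuclei outside the GABAergic group had 2 or more Lamp5 UMIs in 518 of 100536 cases, 0.169% to 1.67% per library, a level to which free RNA and other Lamp5-expressing cells could both add.

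The nuclei lay close to the Lamp5 threshold. Of the nuclei that met every other condition, 3076 had no Lamp5 UMI and 426 had 1, just outside, while 216 had 2, 98 had 3, 44 had 4 and 37 had 5 or more. The highest value was 8. The exclusions on Sst, Vip and Pvalb removed few: 402 GABAergic nuclei had at least 2 Lamp5 UMIs, and 2, 2 and 3 of them were left out for these 3 genes in turn. Gad1 had a median of 5 UMIs and Gad2 a median of 8 per Lamp5 nucleus, and 11 nuclei sat exactly at the Gad1 plus Gad2 minimum of 3. A Lamp5 cell with few captured transcripts therefore falls outside the set.

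One Lamp5 nucleus of old ad libitum replicate 4 had 205860 UMIs, 12267 genes and 27 UMIs of Slc17a7, and gave 34.2% of that mouse's summed counts. The next largest Lamp5 nucleus had 34692 UMIs. The doublet ranking marked the nucleus of 205860 UMIs. The settings without ranked doublets and with fewer than 2 Slc17a7 UMIs therefore also leave it out. Levels of this mouse include it, and many of those compared by age or diet are also given without it. Counts were summed over the Lamp5 nuclei of each mouse where there were at least 10, which left out young replicate 2 and long-term restricted replicate 4, with 8 nuclei each. Levels are given as CPM, counts scaled to the same total in every sum, differences are log2 fold changes from edgeR, and a gene was called at a Benjamini-Hochberg adjusted p below 0.05. Nuclei of 1 mouse share a library, so mice, not nuclei, are the replicates, and in summed counts fewer cells of a kind and less RNA per cell cannot be told apart.

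Lamp5 nuclei were set against the other GABAergic nuclei of the same mice first, leaving out the 6 genes of the rule. Because the rule sorts nuclei on genes measured in those nuclei and leaves Sst, Vip and Pvalb cells on the other side, this comparison describes what was selected. At an adjusted p below 0.05 and a fold of at least 2, 161 of 9621 genes (1.67%) were called higher and 304 (3.16%) lower, together 4.83%, over 11 mice. Of 15 fixed markers of neurogliaform cells 12 had enough counts, 9 were called higher and none lower, with a median log2 difference of 1.65 against -0.0006 for all genes. The marker list thus followed the label, although Npy, Gabrd and Plch2 were not called and Cplx3, Lsp1 and Krt73 were too low to test.

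Matrix genes were among those with the largest differences. Hapln1, a link protein that fixes proteoglycans to hyaluronan, had a lowest, median and highest CPM of 106, 151 and 292 in Lamp5 nuclei against 18.0, 29.5 and 53.7 in the other GABAergic nuclei (log2 difference 2.51, SE 0.16). Vcan, the proteoglycan versican, had 150, 252 and 329 CPM against 29.9, 44.4 and 86.2 (2.38, SE 0.11). For both genes the ranges did not overlap in the 11 mice. Vcan is also a marker of oligodendrocyte precursors and was the 1 of 4 such markers with enough counts to test, while Pdgfra, Cspg4 and Olig1 averaged 2.73, 1.10 and 1.22 CPM in Lamp5 nuclei. They are neighbours in mm10: Hapln1 lies at chr13:89539796-89611652 on the plus strand and Vcan at chr13:89655312-89742509 on the minus strand. The secreted guidance molecule Reln had 649.9, 1747 and 3165 CPM against 464, 549 and 676 (1.52, SE 0.23), higher in 11 of 11 mice but with overlapping ranges. Ndnf, another secreted protein, was higher in 10 of 11 mice, at 0, 223 and 446 CPM against 34.6, 55.4 and 69.4 (1.74, SE 0.31).

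The other genes with large positive differences had varied roles. Cacna2d1, an auxiliary subunit of voltage-gated calcium channels, had 1797, 2688 and 3097 CPM in Lamp5 nuclei against 394, 602 and 953 (log2 difference 2.14, SE 0.12). The transcript Gm3510 had 8.78, 54.9 and 110 CPM against 4.97, 9.52 and 12.3 (2.61, SE 0.21) and lies beside it: Gm3510 is annotated at chr5:15923755-15933406 on the minus strand and Cacna2d1 at chr5:15934691-16374511 on the plus strand. Among called genes higher in 11 of 11 mice, with a mean of at least 50 CPM in Lamp5 nuclei, the other members of the 12 with the largest positive differences were Crispld1 (2.48), Id2 (2.35), Gm30835 (2.26), Pde11a (2.22), Hcrtr2 (2.20), Egfr (2.17), Myo3b (2.15) and Pld5 (2.13). Id2 is an inhibitor of helix-loop-helix factors, Pde11a breaks down cyclic nucleotides, Hcrtr2 is a receptor for orexin and Egfr the receptor for epidermal growth factor. Kit, a receptor tyrosine kinase, and Sv2c, a synaptic vesicle protein, were higher in 10 of 11 mice each (2.23, SE 0.26, and 1.86, SE 0.29), and Nos1, the neuronal nitric oxide synthase, in 11 of 11 (1.40, SE 0.10).

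Receptor and channel genes were taken list by list, beside 1.67% of all genes called higher and 3.16% lower. Of 9 tested genes for GABA synthesis, transport and GABAB receptors 2 were called higher and 0 lower. Gabbr2, a GABAB receptor subunit, was higher, at 618, 729 and 873 CPM against 265, 367 and 449, and the vesicular transporter Slc32a1 had medians of 31.7 and 31.1 CPM. Of 12 tested GABAA receptor subunits Gabra5, Gabrb2 and Gabrg3 were higher (1.03, 1.02 and 1.05) and Gabra3 and Gabrg1 lower (-1.01 and -2.34). Of 22 tested glutamate receptor genes 1 was called higher and 5 lower. Grin2a, an NMDA receptor subunit, was higher (1.31, SE 0.07), while the kainate receptor gene Grik3 (-2.24) and the metabotropic Grm7 and Grm8 (-1.33 and -1.70) were lower. Of 23 voltage-gated channel genes 1 was called, near the share of all genes (4.83%): Kcnc2, a fast potassium channel typical of fast-spiking cells, at 415, 544.5 and 758 CPM against 1663, 2234 and 2803 (-1.99, SE 0.07). Among 12 tested receptors for neuromodulators Adra1a, an adrenergic receptor, was higher (1.55, SE 0.13) and Oprd1, the delta opioid receptor, and Cnr1, the cannabinoid receptor, lower (-2.82 and -1.11). Of 23 adhesion and matrix genes 5 were called higher (Reln, Ndnf, Hapln1, Ntn1 and Unc5c) and 5 lower (Ntng1, Nrxn3, Lrrc4c, Cdh13 and Sema3a).

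Lower genes included regulators of interneurons from the medial ganglionic eminence: Satb1 had 0, 11.5 and 29.9 CPM against 115, 195 and 272 (-3.83, SE 0.17) and Sox6 0, 31.6 and 58.4 against 159, 253 and 422 (-2.99, SE 0.21). Both are known from Sst and Pvalb cells, which are among the other GABAergic nuclei. By the same limits, with 50 CPM in the other nuclei, the most negative were Stk32a (-4.21), 6330411D24Rik, Satb1, Tmem44 (-3.70) and Kctd8 (-3.49). Lhx6, the factor that the same lineage keeps, was higher by less than the fold of 2, at 29.4, 43.2 and 87.8 CPM against 26.3, 32.6 and 39.3 (0.43, SE 0.13), in 9 of 11 mice. Of 5 tested genes of the caudal ganglionic eminence 2 were called lower and none higher, with a median of -0.75: Npas1, a transcription factor (-2.02, SE 0.16), and the chemokine Cxcl14 (-2.09, SE 0.30). Adarb2 was lower by less than the fold of 2 (-0.75, SE 0.21), and Prox1 differed by -0.0064 (SE 0.11). Vip cells, which come from this source, are among the other GABAergic nuclei.

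Side by side with nuclei picked by the same kind of rule for Sst (503 nuclei), Vip (325) and Pvalb (153), the Lamp5 sums held features of several kinds. These features need not lie in the same nuclei: those with much Adarb2 held Lhx6 less often than the others, as given below. These sets were chosen on measured values and are compared without a test. Lhx6 averaged 45.4 CPM in Lamp5 nuclei, 67.7 in Sst, 49.1 in Pvalb and 0 in Vip nuclei. Satb1, in contrast, averaged 13.1 CPM in Lamp5 nuclei, 400.3 in Sst and 359 in Pvalb nuclei. The Lamp5 sums thus held Lhx6 at a level near that of the Sst and Pvalb sets with little of Satb1 or Sox6. Adarb2 averaged 3164 ± 1377 CPM in Lamp5 nuclei (SD, n = 11 mice), 14304 ± 3056 in Vip (n = 12), 210 ± 368 in Sst (n = 10) and 167 ± 214 in Pvalb nuclei (n = 7). The Vip set held a nucleus of 255307 UMIs, against a median of 7137, and its values are not given without that nucleus. Egfr was shared with the Vip set, at 430 and 453 CPM, and was 1.48 and 3.01 CPM in the Sst and Pvalb sets. Cacna2d1, Hapln1, Vcan, Id2, Ndnf and Gm3510 averaged higher in Lamp5 nuclei than in each of the 3 sets: Hapln1, for example, averaged 174 ± 60.7 CPM against 6.98, 5.10 and 13.5 in Sst, Vip and Pvalb nuclei.

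**Figure D1:**
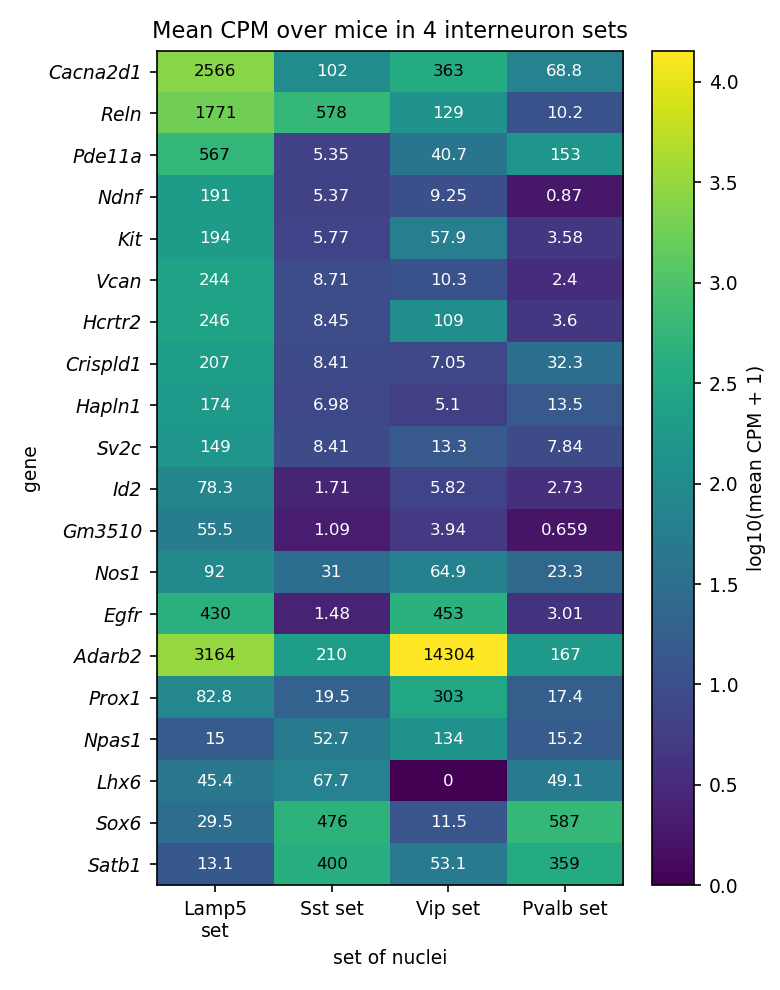
Grid of genes (vertical) by set of nuclei (horizontal), with the mean CPM over mice printed in each cell and coloured as log10 of the mean plus 1. Cacna2d1 and Hapln1 stand highest in Lamp5 nuclei, while Satb1 and Sox6 are highest in Sst and Pvalb nuclei and Adarb2 in Vip nuclei.

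The Lamp5 nuclei did not form a uniform set. To compare nuclei at 1 depth, each was thinned to 5000 UMIs, which left 376 of the 395. At that depth Adarb2, a gene outside the rule, had no UMI in 101 nuclei, 1 to 4 in 67, 5 to 9 in 36, 10 to 14 in 23, 15 to 19 in 21 and 20 or more in 128. The values thus had a peak near 0 and a broad spread above it, without a gap. A dividing value of 10 was chosen after these values were seen, with 36 nuclei just below it and 23 just above. It gives 172 nuclei rich in Adarb2 (median 9436 UMIs before thinning) and 204 poor in it (10385 UMIs). These are ranges of 1 measurement, and no test is given between them.

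With a UMI of Kit at this depth were 124 of 172 Adarb2-rich nuclei (72.1%) and 10 of 204 Adarb2-poor nuclei (4.90%). Ndnf had a UMI in 99 (57.6%) and 13 (6.37%), and Reln in 145 (84.3%) and 121 (59.3%), with medians of 12 and 2 UMIs. Kit and Ndnf were thus largely held by the Adarb2-rich nuclei, and Reln was in both but higher there. The opposite order was found for Nos1, with a UMI in 37 (21.5%) and 92 nuclei (45.1%), for Lhx6, in 12 (6.98%) and 59 (28.9%), for Id2 (20.3% and 40.7%) and for Vcan (34.3% and 58.3%). Hapln1 had a UMI in 43.0% and 52.0% of nuclei.

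**Figure D2:**
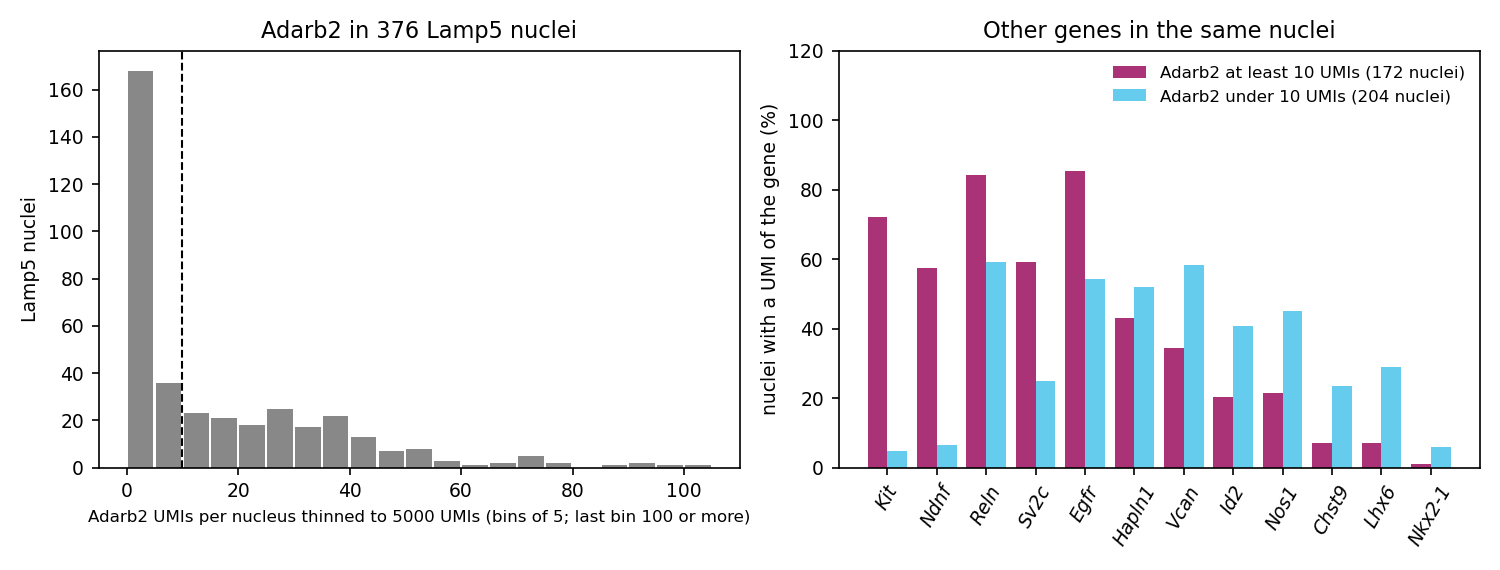
Number of Lamp5 nuclei by Adarb2 UMIs after thinning to 5000 UMIs, and the percentage of Adarb2-rich and Adarb2-poor nuclei with a UMI of selected genes. Kit was seen in 72.1% of the rich and 4.90% of the poor nuclei, and Lhx6 in 6.98% and 28.9%.

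The same nuclei were also summed per mouse without thinning, in the 9 mice that had at least 5 nuclei of both kinds. The leading genes were chosen for the same direction in every one of these mice, so that trait is no separate result. Of 11266 genes with enough UMIs, 167 (1.48%) were higher in the Adarb2-rich sum of every mouse at a mean of at least 50 CPM and 138 (1.22%) lower. Kit averaged 376 ± 116 CPM in Adarb2-rich and 18.6 ± 20.7 CPM in Adarb2-poor nuclei (SD, n = 9), and Ndnf 372 ± 166 and 22.5 ± 17.7 CPM. Sema3e, a secreted guidance cue, averaged 262 and 12.2 CPM, and Npas3, a neural transcription factor, 651 and 56.5 CPM. The largest contrasts toward the Adarb2-rich nuclei also included Dkk2, an inhibitor of Wnt signalling, Ntn1, a netrin, Gm30835 and Parm1. Toward the Adarb2-poor nuclei, Cntnap4, a synaptic adhesion protein of interneurons, averaged 186 ± 95.6 and 1492 ± 230.5 CPM, Tacr1, the substance P receptor, 6.40 and 67.7 CPM, and Lhx6 9.78 and 69.6 CPM. Prlr, the prolactin receptor, Zbtb7c, Sntb1 and Myo5b were also in this group. Gene by gene, the Adarb2-poor nuclei had Nos1 at 127 against 60.6 CPM, higher in 9 of 9 mice, whereas Reln was 784 against 2858 CPM and Npy 26.4 against 84.2 CPM, both lower in 9 of 9. Cacna2d1 was close in both, at 2358 and 2561 CPM, as was Dock4, at 294 and 321 CPM. No other gene called with age below is given by Adarb2 range, so these values stand for Dock4 alone.

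The mixture of the 2 ranges varied between the mice of each group. Adarb2-rich nuclei made up 51.2%, 25.0% and 66.7% of the thinned Lamp5 nuclei in young mice 1, 2 and 3, with 4 nuclei behind the second value. They made up 68.6%, 40.5% and 34.2% in old ad libitum mice 1, 2 and 4, 34.4%, 11.1% and 54.3% in acutely restricted mice, and 38.2%, 42.3%, 75% and 75% in long-term restricted mice. Every pair of groups overlapped. The lowest mouse, acutely restricted replicate 2, had no UMI of Ndnf or Kit in its 18 thinned nuclei, and its summed Ndnf was 0 CPM and Kit 8.78 CPM. The summed Ndnf levels of the other 10 mice in the comparisons ran from 54.9 to 446 CPM. For genes that differ between the ranges, a different mixture and a different level per nucleus cannot be told apart in the sums, and the mixture's part in the results below was not tested.

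Lhx6 itself was used to split the Lamp5 nuclei in a comparison within each mouse. At least 2 Lhx6 UMIs were found in 51 of 395 Lamp5 nuclei (12.9%, Wilson 95% interval 9.96% to 16.6%), which covers counting error only. The share was 15.3% in Sst nuclei, 18.3% in Pvalb nuclei and 0 of 325 in Vip nuclei, whose median depth was 7137 UMIs. Nuclei with no Lhx6 UMI were taken as Lhx6-negative (273), and the 71 with 1 UMI entered neither side. Only 5 mice had at least 5 nuclei on both sides, all of them old and either fed ad libitum (1, 2 and 4) or acutely restricted (1 and 2). In that order, Lhx6-positive nuclei had median depths of 19087, 15842, 9750, 9918 and 15103 UMIs. Lhx6-negative nuclei were shallower in each mouse, at 14252.5, 9867, 9438.5, 9643 and 12021.5 UMIs.

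Of 1920 genes 2 were called between the Lhx6-positive and Lhx6-negative Lamp5 nuclei (0.104%). Dchs2, a large cadherin, was higher with Lhx6 in 5 of 5 mice: its levels were 489, 569, 330, 387 and 469 CPM in Lhx6-positive nuclei of acutely restricted mice 1 and 2 and old ad libitum mice 1, 2 and 4, against 196, 304, 85.7, 197 and 151 CPM in the Lhx6-negative nuclei (0.0521% of genes; log2 difference 1.38, SE 0.21, edgeR adjusted p 0.02097). Nos1ap, an adaptor protein of nitric oxide synthase, was lower with Lhx6, at 74.6, 14.2, 58.2, 137 and 74.1 CPM against 207, 152, 271, 335 and 258 CPM (-1.74, SE 0.26, adjusted p 0.02097). The ranges of both genes did not overlap. Both kept their direction but neither was called when acutely restricted replicate 1, old ad libitum replicate 1 or old ad libitum replicate 4 was left out (0 calls each), nor among nuclei with fewer than 2 Slc17a7 UMIs, which left 2 mice. Dchs2 was not called without ranked doublets (adjusted p 0.06742) and Nos1ap not with at least 2 nuclei per sum in 10 mice (-0.99, adjusted p 0.08448). Without its largest nucleus old ad libitum replicate 4 had 297 CPM of Dchs2 and 207 CPM of Nos1ap in Lhx6-negative nuclei, and both genes were still called. Nos1 itself was not called (1.23, adjusted p 0.108), nor were Hapln1 (1.16, adjusted p 0.2295), Reln (-1.17, adjusted p 0.2511) and Adarb2 (-1.07, adjusted p 0.6376). Lhx6 is sparsely captured, so many Lhx6-negative nuclei may hold the transcript undetected. In the Adarb2 ranges, Dchs2 averaged 92.3 CPM in rich and 309 CPM in poor nuclei and Nos1ap 255 and 136 CPM.

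The share of Lamp5 nuclei among GABAergic nuclei was compared over all 13 mice. It was 9.77%, 3.16% and 4.67% in young mice, 9.97%, 10.6% and 11.2% in old mice fed ad libitum, 8.39%, 9.52% and 9.71% in acutely restricted mice, and 5.45%, 7.69%, 8.40% and 3.74% in long-term restricted mice. The 3 old ad libitum mice lay above the other 10. The difference between groups did not pass an exact permutation test of the F statistic (p = 0.0805 over 1201200 assignments), and of the 6 pairs the smallest p was that of long-term restricted against old ad libitum mice (exact permutation p = 0.0571, adjusted over the 6 pairs 0.2). With 3 mice against 3 the smallest p such a test allows is 0.1. Outside these pairs, the 10 old mice together had a mean of 8.47% and the 3 young mice 5.87% (exact permutation p = 0.112, not adjusted). After the thinning described next, that comparison gave an exact permutation p = 0.969. A Lamp5 nucleus needs at least 2 UMIs, so the share also moves with depth. After thinning to 5000 UMIs the shares were 7.79%, 2.22% and 5.70% in young mice, 4.66%, 4.64% and 6.88% in old ad libitum mice, 6.22%, 4.67% and 6.45% in acutely restricted mice and 3.49%, 5.36%, 4.63% and 3.20% in long-term restricted mice (exact permutation p = 0.606). In the thinned counts the old ad libitum mice no longer lay above the rest. Their shares then rested on 9, 11 and 15 Lamp5 nuclei, against 35, 42 and 39 before, and are less precise. Whether depth accounts for the change was not tested. Nuclei under 5000 UMIs could not be thinned, between 1 and 135 GABAergic nuclei per mouse, the most in young replicate 2. The rule was then applied again to the thinned counts, which removed more nuclei. GABAergic nuclei fell from 763 to 450 in acutely restricted replicate 1 and from 253 to 90 in young replicate 2. The Lamp5 nuclei behind the thinned shares are therefore a smaller set than the 376 above. Without young replicate 1 the unthinned test gave an exact permutation p = 0.0171.

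Lhx6-positive nuclei made up 4.00%, 0% and 8.33% of the Lamp5 nuclei in young mice, 14.3%, 14.3% and 20.5% in old ad libitum mice, 17.2%, 27.8% and 8.11% in acutely restricted mice and 11.8%, 14.3%, 10.0% and 0% in long-term restricted mice. Both zeros rest on 8 nuclei, which allow a share of up to 37.5%. The difference between the 4 groups did not pass (exact permutation p = 0.0964). Outside the pairs of groups, the 10 old mice together were also set against the 3 young mice. Before thinning the means were 13.8% and 4.11% (exact permutation p = 0.035, not adjusted). After thinning the means were 5.04% and 1.33%, from at most 2 Lhx6-positive nuclei in any mouse, and the difference did not pass (exact permutation p = 0.692). Here too the rule was applied again to the thinned counts, which left 2 to 28 Lamp5 nuclei per mouse. Without acutely restricted replicate 3 the test over 4 groups gave an exact permutation p = 0.0307.

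**Figure D3:**
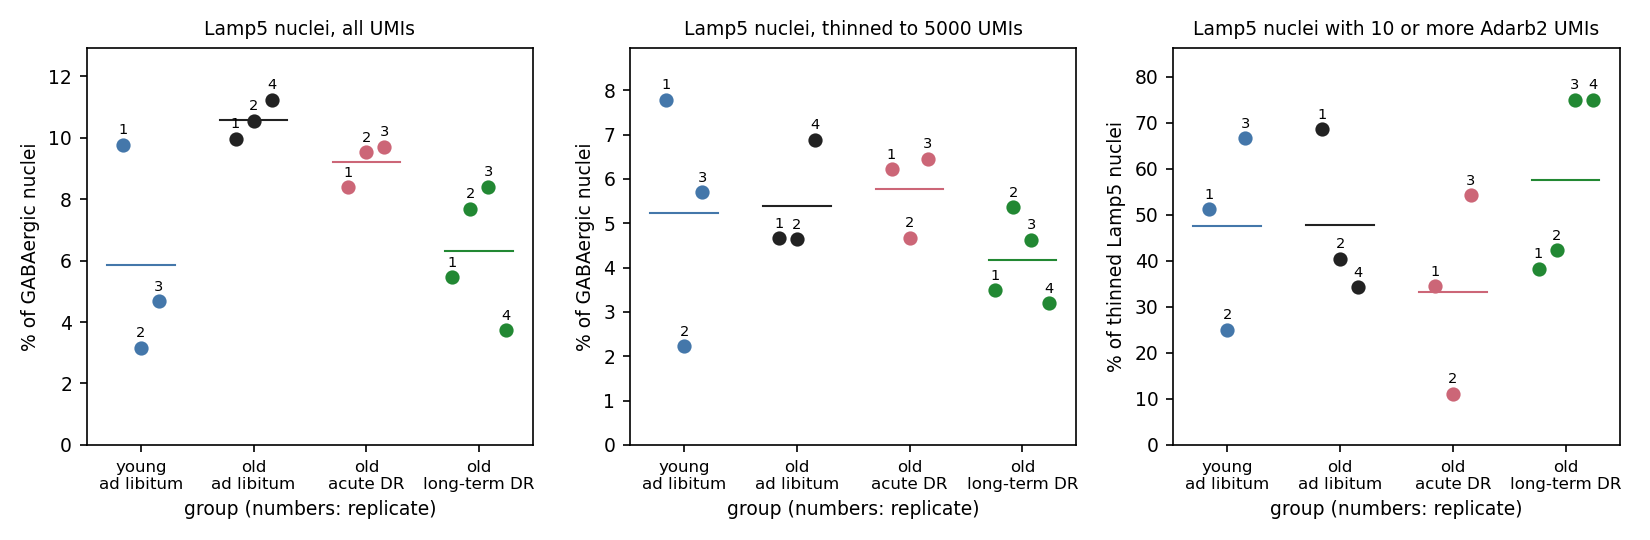
Percentages for each mouse by group, with the replicate number at each point and a line at the group mean. Lamp5 nuclei among GABAergic nuclei are shown with all UMIs (left) and after thinning to 5000 UMIs with the rule applied again (middle). Adarb2-rich nuclei are shown among thinned Lamp5 nuclei that were chosen before thinning (right). The 3 old ad libitum mice lie between 9.97% and 11.2% on the left and between 4.64% and 6.88% in the middle, and Adarb2-rich shares overlap between all groups.

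Ageing was taken as old minus young mice fed ad libitum, with 3 old and 2 young mice. In Lamp5 nuclei edgeR called 12 of 7088 genes (0.169%), 9 higher with age (0.127%) and 3 lower (0.0423%). Unadjusted p-values below 0.05 numbered 415 higher (5.85%) and 348 lower (4.91%). The calls rest on few mice and few counts. Young replicate 2, left out for its 8 nuclei, with 1 to 46 UMIs per gene, lay beyond the old range on the young side in 5 of the 12 genes and within it or on the old side in 7. With sums of at least 5 nuclei, which bring this mouse back, no gene was called. Without the nucleus of 205860 UMIs no gene was called either, although all 12 kept their direction. With number 1 as a term these 2 settings gave 8 calls, 3 of them among the 12, and 11 calls, 6 of them among the 12. Leaving out young replicate 1 gave 0 calls, old ad libitum replicate 4 gave 3, old ad libitum replicate 1 gave 45 and the nuclei that Scrublet ranked as likely doublets gave 1 (Plxna4). The ranked doublets included the nucleus of 205860 UMIs. DESeq2 also called 12 genes, of which 5 were the same: 1700030F04Rik, Dock4, Inpp4b, Plxna4 and Synpr. Adding number 1 as a term raised the count to 22 (0.310%), with all 12 among them. In the same comparison the medians of the oligodendrocyte and granule neuron marker lists were 2.10 and 1.69, with 0 of 3 tested genes below an unadjusted p of 0.05 in each, and that of the 2 tested excitatory neuron markers was 1.38. Without the largest nucleus the first 2 medians were 1.49 and 0.71, and the 1 excitatory marker still tested differed by 0.46.

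Dock4, an exchange factor for small GTPases of the cytoskeleton, had 137 and 142 CPM in young mice 1 and 3 and 374, 372 and 495 CPM in old mice (log2 difference 1.63, SE 0.23, edgeR adjusted p 0.002034). Old replicate 4 fell to 215 CPM without its largest nucleus, still above both young mice. Dock4 in this mouse thus came largely from 1 nucleus. Acutely restricted mice had 351, 391 and 339 CPM and long-term restricted mice 216, 246 and 195 CPM. In the young mouse left out, Dock4 was at 423 CPM from 25 UMIs, within the old range. Among the mice in the comparisons, the 2 young mice lay below the 9 old mice of all diets, as the rule for named genes required. Young replicate 2 did not.

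Synpr, a protein of synaptic vesicles, had 29.4 and 30.4 CPM in the young mice and 159, 167 and 256 CPM in the old mice (2.75, SE 0.42, adjusted p 0.005394). Without its largest nucleus old replicate 4 had 25.3 CPM of Synpr, below both young mice, and young replicate 2 had 152 CPM from 9 UMIs, next to the lowest old mouse. Garem1, an adaptor of receptor tyrosine kinases, had 9.81 and 0 CPM in young mice, from 4 and 0 UMIs, and 68.4, 59.2 and 54.9 CPM in old mice (2.97, SE 0.54, adjusted p 0.02194). Old replicate 4 had 25.3 CPM without that nucleus, and young replicate 2 had 50.7 CPM from 3 UMIs. Synpr and Garem1 in this mouse thus came largely from 1 nucleus. Ptk2b, a calcium-regulated kinase, had 14.7 and 20.2 CPM in young and 63.4, 67.7 and 146 CPM in old mice (2.57), 35.4 CPM in replicate 4 without the nucleus, and 169 CPM in young replicate 2. Most Ptk2b of old replicate 4 thus also came from that nucleus.

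The other genes called higher were 9530026P05Rik (2.29), Sntb2 (2.22), Inpp4b (1.87), Nrp1 (1.71) and Plxna4 (1.64). Sntb2 is a syntrophin of the dystrophin complex, Inpp4b a phosphoinositide phosphatase, and Nrp1 and Plxna4 are co-receptor and receptor for semaphorins. Young replicate 2 had 423 CPM of Inpp4b, 220 CPM of Nrp1 and 778 CPM of Plxna4, each above all 3 old mice, and 50.7 CPM of 9530026P05Rik and 16.9 CPM of Sntb2, below all 3. 9530026P05Rik is annotated as an antisense RNA at chr6:92940329-93272979 in mm10 and overlaps Adamts9 on the opposite strand.

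Genes called lower were Tuba1a, Ndn and 1700030F04Rik. Tuba1a, an alpha-tubulin abundant in developing neurons, had 184 and 81.0 CPM in young mice 1 and 3 and 58.4, 16.9 and 31.6 CPM in old mice (-1.97, SE 0.39, adjusted p 0.03461), and 16.9 CPM from 1 UMI in young replicate 2. Old replicate 4 had 32.8 CPM of Tuba1a and 22.7 CPM of 1700030F04Rik without its largest nucleus. Ndn, necdin, a regulator of neuronal differentiation, had a log2 difference of -2.30. The long noncoding RNA 1700030F04Rik had 172 and 122 CPM in young and 61.8, 23.3 and 23.3 CPM in old mice (-2.01, SE 0.38, adjusted p 0.03461). In young replicate 2 it was at 152 CPM from 9 UMIs, also above the 9 old mice in the comparisons, whose highest level was 63.1 CPM. It lies at chr6:117646693-117751769.

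**Figure D4:**
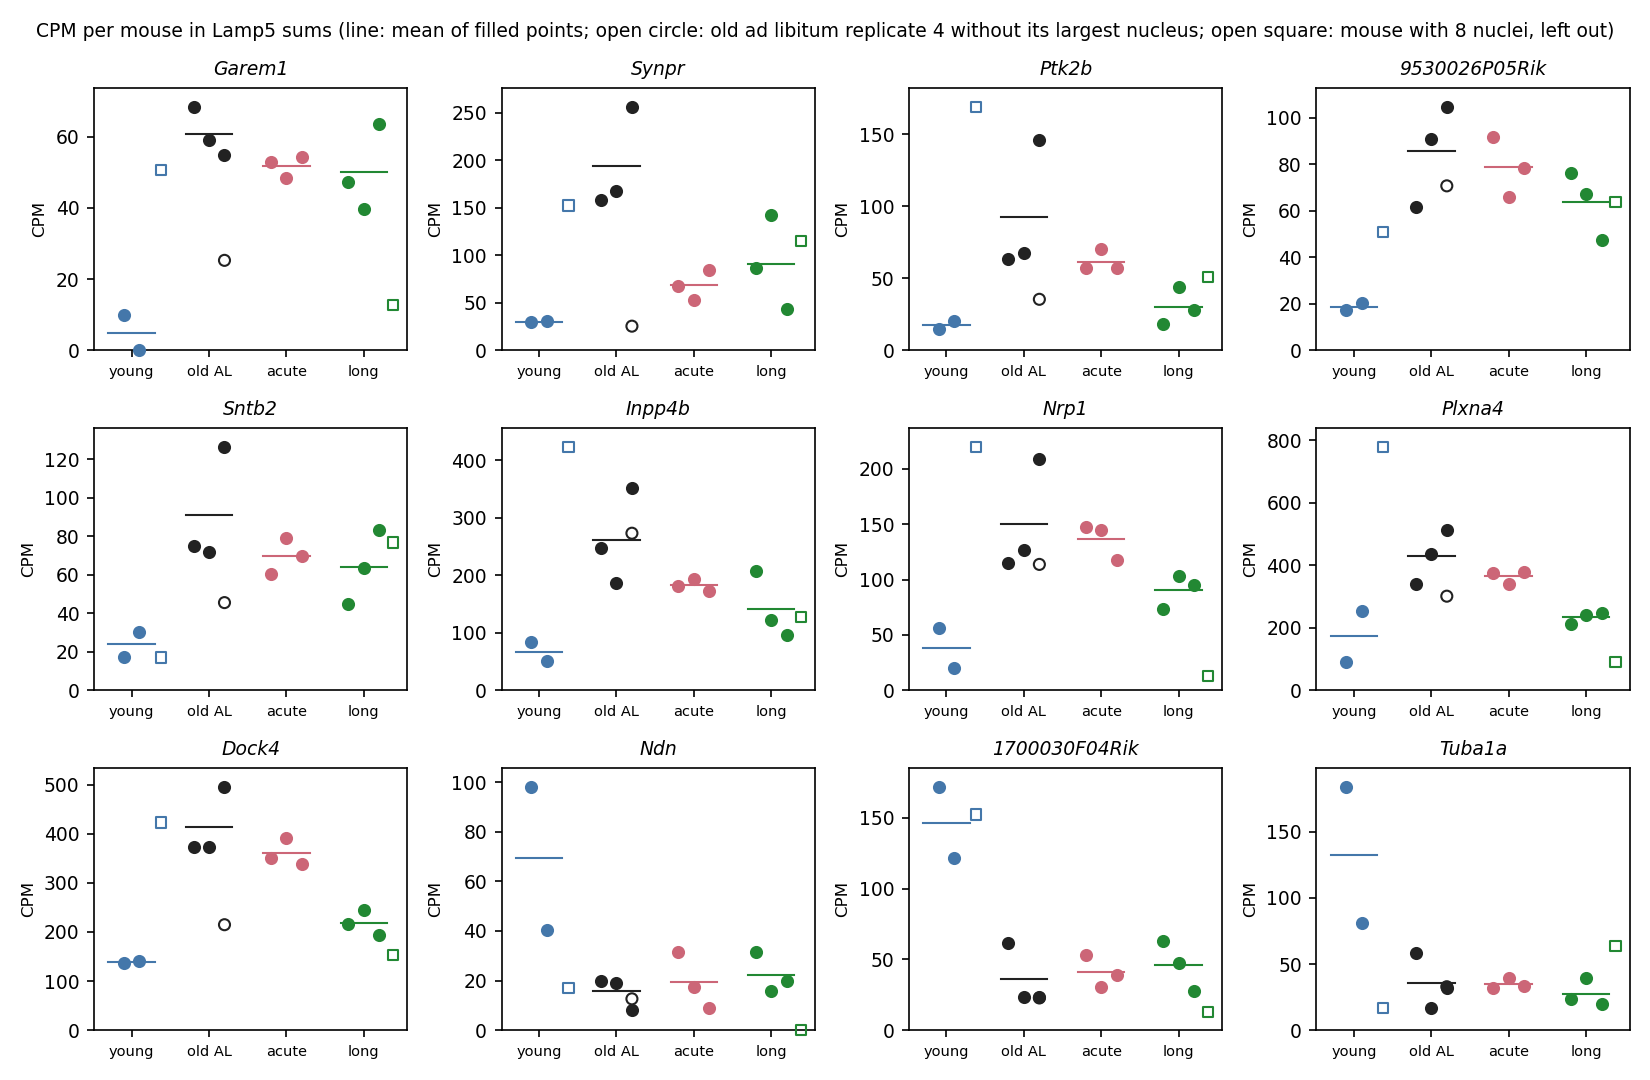
CPM in the Lamp5 sum of each mouse by group for the 12 genes called between young and old mice fed ad libitum, with a line at the mean of the filled points. The open circle is old replicate 4 without its largest nucleus, and open squares are the 2 mice with 8 nuclei that were left out. Among the filled points Dock4 is at 137 and 142 CPM in the 2 young mice and at 195 CPM or more in the 9 old mice, and 1700030F04Rik is at 122 CPM or more in young and 63.1 CPM or less in old mice.

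All 9 old mice, whatever their diet, were also set against the 2 young mice. This comparison shares its young mice with the previous one. Of 7088 genes 5 were called (0.0705%): Garem1 (2.81), 9530026P05Rik (2.14) and Dock4 (1.27) higher (0.0423%), and Tuba1a (-2.13, SE 0.33, adjusted p 0.01251) and 1700030F04Rik (-1.79, SE 0.32, adjusted p 0.02688) lower (0.0282%). Tuba1a and 1700030F04Rik were the 2 genes called without the nucleus of 205860 UMIs. DESeq2 called 1 of the 5 (Dock4), sums of at least 5 nuclei 1 (1700030F04Rik) and removal of the gene length trend 0, and all 5 kept their direction. Young replicate 2 lay beyond the range of the 9 old mice on the young side in 1 of the 5. With number 1 as a term 18 genes were called (0.254%), 13 more, of which the rule for named genes gave 6: Uvrag, a gene of autophagy (1.36), and the exchanger Slc24a2 (1.06) as higher, and Tuba1b (-2.79), Ndn (-1.93), Actb (-1.67) and Hsp90ab1 (-1.42) as lower, with log2 differences from the fit without that term. Tuba1b is an alpha-tubulin and Actb cytoplasmic actin. Actb stood at 311.5 and 121.5 CPM in the young mice against 43.7 to 117 CPM in the old. No gene was called in this comparison without young replicate 1.

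Several fixed lists leaned to 1 side with age, with 0 genes called in each. Heat shock genes had unadjusted edgeR p-values below 0.05 in 5 of 7 tested genes, all lower in old mice, with a median log2 difference of -1.13 against -0.012 for all genes, and in 6 of 7 when all old mice were used. Hsp90ab1, a chaperone, had 282 and 152 CPM in young mice and 138.5, 48.6 and 54.9 CPM in old mice, and 118 CPM in young replicate 2, with 58.1 CPM in old replicate 4 without its largest nucleus. Of 21 glutamate receptor genes 7 were below an unadjusted p of 0.05 and higher and 1 was lower, with a median of 0.40. Of 23 voltage-gated channel genes 5 were below that p and higher, among them Cacna1c (0.88, adjusted p 0.089) and Cacna1e (1.12). These counts stand beside 5.85% and 4.91% of all genes. Without the largest nucleus the glutamate receptor median was 0.20, with 5 of 20 genes below that p and higher and 1 lower, beside 4.46% and 4.40% of all genes. The heat shock median was then -1.14, again with 5 of 7 genes lower. Young Lamp5 nuclei were also shallower than all old ones, and removal of a trend with gene length gave 7 calls for ageing (0.0988%).

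Among the neurogliaform markers 2 of 12 were below an unadjusted p of 0.05, both lower with age. Hapln1 had 292 and 233 CPM in young mice 1 and 3 and 117, 123 and 106 CPM in old mice (-1.17, adjusted p 0.061), and 304.5 CPM in young replicate 2. Old replicate 4 had 162 CPM of Hapln1 without its largest nucleus. The 3 young mice were above the 3 old ad libitum mice either way, while acutely restricted mice had 148, 233 and 151 CPM and long-term restricted mice 208, 119 and 187 CPM. The difference between restricted and old ad libitum mice in Hapln1 was 0.61 (adjusted p 0.80). Id2 had 211 and 60.8 CPM in young mice and 86.8, 86.7 and 39.9 CPM in old mice (-1.14), the last 58.1 CPM without that nucleus, with overlap.

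Long-term restriction was set against old ad libitum feeding with 3 mice each. No gene was called in edgeR (0.00% of 7088), and 131 genes (1.85%) were higher and 171 (2.41%) lower at an unadjusted p below 0.05. With number 1 as a term 1 gene was called (0.0141%), Zbtb20, a zinc finger transcriptional repressor with a role in hippocampal development, as lower. Its levels were 696, 914 and 1225 CPM in old ad libitum mice, 292, 654 and 465 CPM in long-term restricted mice, 387, 540.1 and 532 CPM in acutely restricted mice and 240.3 and 537 CPM in young mice (log2 difference -1.0, SE 0.31, adjusted p 1.0 without the term). The ranges of old ad libitum and long-term restricted mice did not overlap, but old replicate 4 fell to 331 CPM without its largest nucleus, which then lay within the restricted range. Young replicate 2 was at 1353 CPM. Among the genes called with age, the long-term restricted mice lay below all 3 old ad libitum mice in Dock4 (-0.89, adjusted p 0.2105) and in Plxna4, at 213, 242 and 246 CPM against 339, 436 and 514 CPM (-0.85, adjusted p 0.6716), and neither was called. Without its largest nucleus old replicate 4 had 215 CPM of Dock4, within the long-term restricted range, and 301 CPM of Plxna4, still above it. Both comparisons use the same old ad libitum mice, whose high levels helped these genes to be called with age. That choice favours lower levels under restriction, so this order is no separate result. They were picked from the 12 genes called with age, and the share of all genes with such an order is not given.

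Acute restriction against old ad libitum feeding also gave no call (0.00%), with 132 genes (1.86%) higher and 142 (2.00%) lower at an unadjusted p below 0.05. The genes of smallest p were Serpini1, Dock11 and Gm4258 on the higher side and Synpr, Gm3510 and Rreb1 on the lower, none past the threshold. Serpini1, neuroserpin, an inhibitor of tissue plasminogen activator, had 388, 729 and 378 CPM in acutely restricted mice and 204, 241 and 226 CPM in old ad libitum mice (1.16, edgeR adjusted p 0.3732). Gm3510, the neighbour of Cacna2d1, had 17.2, 8.78 and 24.2 CPM against 61.8, 82.5 and 54.9 CPM (-1.89, adjusted p 0.1851), and 47.3, 43.6 and 99.3 CPM in long-term restricted mice. Old replicate 4 had 313 CPM of Serpini1 and 80.9 CPM of Gm3510 without its largest nucleus. With or without it, the acutely restricted mice had the 3 lowest levels of Gm3510 among the 11 mice. Cacna2d1 itself differed by 0.39 in the opposite direction (adjusted p 0.9996). Serpini1 averaged 171 CPM in Adarb2-rich and 422 CPM in Adarb2-poor nuclei, and Gm3510 79.6 and 38.8 CPM.

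Long-term against acute restriction gave no call (0.00%), with 135 genes (1.90%) higher and 138 (1.95%) lower at an unadjusted p below 0.05. Chst9, a sulfotransferase that acts on sugar chains, had 83.1, 140.5 and 90.7 CPM in acutely restricted mice and 34.2, 27.7 and 7.94 CPM in long-term restricted mice (-2.0, edgeR adjusted p 0.3137), and 65.1, 95.2 and 123 CPM in old ad libitum mice. Old ad libitum replicate 4 had 73.3 CPM of Chst9 without its largest nucleus. Of the 9 old mice in the comparisons, the long-term restricted mice were the lowest for Chst9 either way. Long-term restricted replicate 4, left out for its 8 nuclei, is not among them. Chst9 had a UMI in 7.0% of Adarb2-rich and 23.5% of Adarb2-poor nuclei. The other genes of smallest p were Gm3510 (1.84), Nwd2 (1.23), Dipk1a (1.31), Nnat (-2.0) and Dock4 (-0.70). Restriction of either kind against old ad libitum feeding gave no call (0.00%), with 135 genes (1.90%) higher and 184 (2.60%) lower at an unadjusted p below 0.05, and 2 calls with number 1 as a term (0.0282%), Synpr (-1.27) and Zbtb20 (-0.98) as lower, with the differences from the fit without the term. The level of both genes in old ad libitum replicate 4 came largely from its largest nucleus, as given above, and with number 1 as a term no gene was called without that nucleus, here or for long-term restriction alone. Granule neuron markers had a median of -0.81 in this comparison, with 2 of 3 tested genes below an unadjusted p of 0.05, both lower. Without the largest nucleus their median was -0.17, with 0 of 3 genes below that p. No list had a called gene in any comparison of diets.

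Transcripts of other cell types were present in the Lamp5 sums of all groups. The summed level of 6 oligodendrocyte markers was 24.5 to 67.7 CPM in young, 63.4 to 236 in old ad libitum, 43.0 to 257 in acutely restricted and 27.8 to 87.2 in long-term restricted mice, with all 6 detected. The 6 excitatory neuron markers summed to 36.8 to 81.0 CPM in young and 45.1 to 115 in old ad libitum mice, and the 5 microglial markers to 44.1 to 304 and 40.2 to 86.4 CPM. The 4 granule neuron markers summed to 282 to 897 CPM in young, 482 to 927 in old ad libitum, 202 to 608 in acutely restricted and 263 to 646 in long-term restricted mice, and to 245 to 632 CPM in old ad libitum mice without the largest nucleus. Without it the granule neuron markers Dock10, Glis3 and Stxbp6 differed by 0.27, 1.35 and 0.71 with age and by -0.17, -0.81 and 0.16 between restricted and old ad libitum mice. The endothelial marker Flt1 and the Cajal-Retzius markers Trp73 and Lhx5 had no UMI in any Lamp5 sum. The part of these other cell types in the differences with age and diet was not tested.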

How the data were processed

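Single-nucleus RNA sequencing gave 13 libraries. The deposited values were whole-number UMI counts per gene and nucleus, made by the authors with Cell Ranger 4.0.0 on mm10, per the submitters' processing notes; other steps are not given in the sources used here. The files held 105759 barcodes with 32285 features. Total counts per library, from 38535943 to 80529968 UMIs over retained nuclei, set the precision; intervals cover counting error only. Groups came from the sample titles. Labels make each library a separate mouse, and p-values measure the spread between mice.

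Counts were summed per mouse over at least 10 Lamp5 nuclei (5 for the Lhx6 split) and tested with edgeR 4.0.16 in R 4.3.3 by the quasi-likelihood test, with TMM scaling, filterByExpr and Benjamini-Hochberg adjustment over all tested genes. Groups of mice were fitted together; comparisons within mice had a term for the mouse. Shares were compared by exact two-sided permutation. Thinning drew 5000 UMIs per nucleus, and for shares of Lamp5 and Lhx6-positive nuclei the rule was applied again to the drawn counts. Doublets were ranked with Scrublet in scanpy 1.11.5 and kept in the main results. Alternatives included DESeq2 1.42.0, other filters, covariates and left-out libraries. Positions are from GENCODE M21. Named genes were the 12 largest per direction within mice, up to 10 called per direction with no overlap between conditions (then those called with number 1 as a term, or the 3 of smallest p), and fixed lists. The members and lists were chosen with earlier results of these data known. The code was tested on simulated data. Some results are not reported here.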

Additional observations from a re-analysis of the deposited data

Results flagged for a closer look

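Among 18 sets of 4 to 10 mice that were checked for a mouse apart from the rest, 1 stood out, where chance gives about 1 in 20. It was Hapln1 in Lhx6-negative Lamp5 nuclei: old ad libitum replicate 4 had 45.4 CPM and the other 4 mice 105 CPM or more, and the gap was 0.837 of the whole range. This is the mouse whose sum holds the nucleus of 205860 UMIs. Without that nucleus its value was 89.4 CPM, from 19 UMIs.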

How the results depend on the processing

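Of the recomputed values for single named genes, 712 kept their side of the threshold, 75 newly passed it, 191 no longer did and 0 reversed. Counts of called genes moved as follows; the cause was not tested. With all genes that had a count there were 172 calls for ageing, 22 for long-term restriction, 15 for acute restriction, 11 between restrictions, 156 for old of all diets against young, 28 for restriction of either kind, 935 for Lamp5 against other GABAergic nuclei and 71 for the Lhx6 split. With number 1 as a term there were 22, 1, 18 and 2 for ageing, long-term restriction, old of all diets and restriction of either kind. With median UMIs as a covariate there were 50, 9, 4, 31 and 17 for ageing, long-term, acute, old of all diets and restriction of either kind.

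For ageing the calls were 20 with sums of at least 20 nuclei, 7 after removal of the gene length trend, 1 without ranked doublets, 1 with fewer than 2 Slc17a7 UMIs, 2 with at least 3 Lamp5 UMIs, 0 with at least 5 nuclei, 0 without the largest nucleus and 1 without the libraries numbered 1. For old of all diets they were 12 with DESeq2, 10 with at least 20 nuclei, 0 after the length trend, 2 with fewer than 2 Slc17a7 UMIs, 1 with at least 5 nuclei, 20 with that and number 1, 2 without the largest nucleus, 23 with that and number 1, and 1 without the libraries numbered 1. At least 3 Lamp5 UMIs gave 1, 1 and 3 calls for long-term, acute and either restriction, and leaving out the libraries numbered 1 gave 3 for long-term restriction. The settings on doublets and on Slc17a7 also leave out the largest nucleus. The Lhx6 split had 6 calls with DESeq2, 4 without doublets (1 of the 2 among them), 55 with fewer than 2 Slc17a7 UMIs (0 of the 2) and 30 with at least 2 nuclei (1 of the 2), and none could be computed with at least 3 Lamp5 UMIs.

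Leaving out 1 mouse at a time gave 0 to 45 calls for ageing, 0 to 1 for acute restriction and between restrictions, 0 to 32 for old of all diets, 0 to 2 for either restriction and 0 to 18 for the Lhx6 split. Ageing had 0 calls if young replicate 1 was left out, 3 (Dock4, Garem1 and Synpr) if old ad libitum replicate 4 was, and 45 if old ad libitum replicate 1 was. Where this left 1 young mouse, it was assumed to vary like the others. The test of shares gave p from 0.0171 to 0.156 for Lamp5 nuclei (0.0171 without young replicate 1) and from 0.0307 to 0.245 for Lhx6-positive nuclei (0.0307 without acutely restricted replicate 3), by exact permutation.

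Replicate numbers were not taken to pair the mice. Correlations of same-numbered deviations ran from 0.00396 to 0.212 (median 0.110), over 0.1 in 7 of 12 pairs. Those of different numbers ran from -0.212 to 0.101 (median -0.0522), over 0.1 in 1 of 33 pairs. With 2 young mice, the deviations of 1 mirror those of the other, so their correlations come with opposite signs. Both the lowest and the highest of these values are such mirrored ones. Of 11 mice 9 correlated best with their own number, and old ad libitum replicate 4 had no same-numbered mouse among them. This is a hint from the data and not the design. With a replicate block the calls were 22, 29, 6, 36 and 5 for ageing, acute restriction, between restrictions, old of all diets and either restriction, and the Lhx6 split had 4 with no replicate block. Depth limits the results: 2 young mice entered the fits, and genes with few UMIs per sum could not be tested.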
